A study of Schizosaccharomyces pombe with 9 samples.

Results

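STF6, a suppressor strain of the fission yeast Schizosaccharomyces pombe, was compared with its parent, rpb1-CTD-T4A29, called T4A below. The comparison took the 6 libraries of 9 in the series that carry these labels, 3 of STF6 and 3 of T4A, and all genes of the count table that passed a filter on low counts, 5917 of 6986. The T4A strain carries an alanine in place of threonine 4 in the heptad repeats of the carboxy-terminal domain (CTD) of Rpb1, the largest subunit of RNA polymerase II. Per the series title, that mutation represses the PHO regulon too strongly, and STF6 was obtained as a suppressor of this repression. The allele that distinguishes STF6 from T4A is not given in the sources used here. Behind each group stands 1 strain with 1 laboratory strain number, so a difference between the groups is a difference between these 2 strains. All cultures were in log phase vegetative growth at 30 °C in YES, a rich medium. As a suppressor of T4A, STF6 is taken to carry the same CTD mutation, though its label gives no genotype, and no strain with a wild-type CTD was compared.

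The PHO regulon of fission yeast consists of pho1, which encodes a secreted acid phosphatase, pho84, which encodes a phosphate importer, and tgp1, which encodes an importer of glycerophosphodiesters. In phosphate-rich cells each gene is held down by transcription of a long non-coding RNA that starts upstream and runs across its promoter, and the genes open when that transcription ends early or is not started. The CTD and its phosphorylation, the cleavage and polyadenylation machinery and inositol pyrophosphates all bear on where these upstream transcripts end. The upstream RNAs of the regulon were not analysed here.

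Total counts were 15374453 to 22909747 in STF6 and 20274395 to 21910154 in T4A. Between replicates of a group, log2 levels correlated with Pearson's r of 0.996 to 0.997 in STF6 and 0.986 to 0.996 in T4A, and between the groups with 0.967 to 0.981 (across 5917 genes, which are not independent). The T4A libraries differed more among themselves. The median SD of a gene's log2 level was 0.0828 in STF6 and 0.205 in T4A, and the SD was larger in T4A for 81.4% of genes. T4A replicate 2 stood apart, being the T4A library farthest from the group's median in 3959 of the 5917 genes, so counts without it are given beside the results. Of 7 measured strain and growth markers none passed edgeR's quasi-likelihood test, 0 and 1 having an unadjusted p under 0.05 upward and downward, and DESeq2 called 1 lower. Among them rpb1 itself had 50.6, 50.6 and 44.4 CPM in STF6, against 46.8, 83.6 and 47.6 CPM in T4A (log2 fold −0.29 ± 0.20), with T4A replicate 2 the highest library. Without T4A replicate 3, 1 of the 7 rose and 2 fell. The labels do not say that replicates came from separate cultures, so p-values measure the spread between these libraries.

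In STF6 874 genes rose and 850 fell, 14.8% and 14.4% of those tested. Counts for a group of genes below are to be read against these shares. A gene is said to rise or fall where its adjusted p was under 0.05 in edgeR's quasi-likelihood test, and folds are log2 ratios of STF6 over T4A with their standard error (SE). Most changes were small, with a median of 1.48-fold among the genes that rose and 1.50-fold among those that fell, and 132 rose and 192 fell at least 2-fold. All 3 STF6 libraries lay above all 3 T4A libraries in 26.0% of genes and below them in 24.5%. Protein-coding and other non-RNA loci rose more often than they fell (817 and 616 of 4936), whereas non-coding RNA loci fell more often than they rose (57 rose and 234 fell of 981). Among the first kind, 15.6%, 18.0% and 15.9% rose on chromosomes I, II and III, and 11.6%, 12.1% and 15.3% fell. The median log2 fold over all genes tested was 0.03. Leaving out one library changed how many genes passed. The numbers were 405 higher and 390 lower without STF6 replicate 1, 487 and 407 without STF6 replicate 2, 473 and 440 without STF6 replicate 3, and 1440 and 1135 without T4A replicate 2. Of the genes above, 360 rose and 346 fell in every fit that left out one library, and those named below did so too unless stated. Genes are named for a large fold with groups that do not overlap, or as the members of a group with the smallest p, so where libraries are said not to overlap this describes the gene and adds no support.

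**Figure D1:**
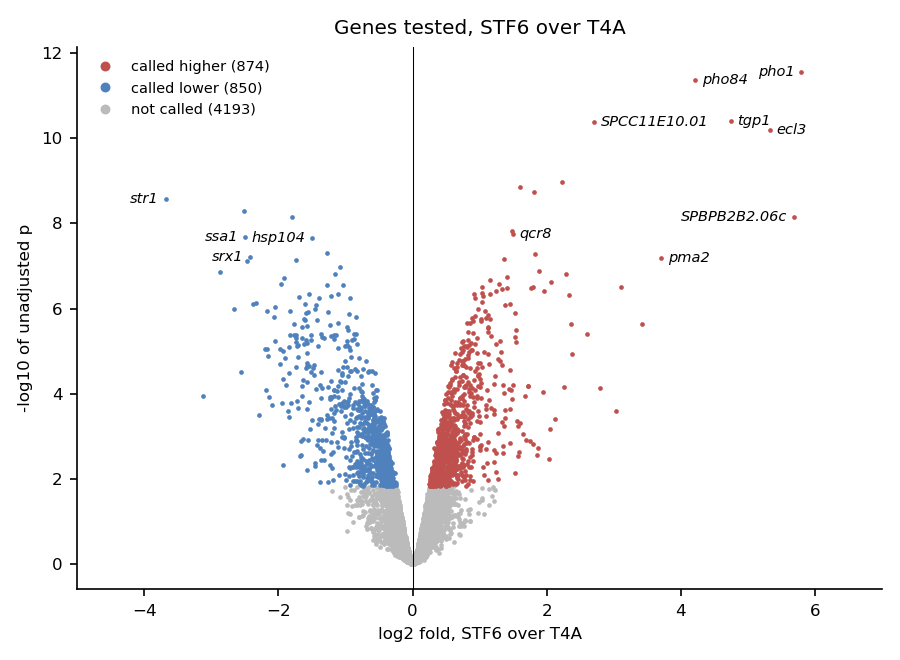
Each point is 1 of the 5917 genes tested, with its log2 fold in STF6 over T4A on the x axis and −log10 of its unadjusted p on the y axis. The 874 genes called higher are red, the 850 called lower are blue, and pho1, pho84, tgp1, ecl3 and SPCC11E10.01 stand highest on the right, as str1 does on the left.

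The PHO regulon rose as a whole, 3 of 3 genes, and with it 7 of 10 other genes listed with phosphate. Levels are in CPM, counts scaled to library size. The acid phosphatase gene pho1 (SPBP4G3.02) had 5985, 6007 and 6051 CPM in STF6, against 105, 127 and 93.7 CPM in T4A. Its level was 55.5 times as high (log2 fold 5.79 ± 0.18, adjusted p = 1.25e-08). The phosphate importer gene pho84 (SPBC8E4.01c) had 2346, 2279 and 2249 CPM in STF6, against 114, 138 and 118 CPM in T4A, an 18.6-fold rise (4.22 ± 0.13, adjusted p = 1.25e-08). Levels of both were tight among the STF6 libraries, and no STF6 library came near a T4A library. The importer gene tgp1 (SPBC1271.09) had 266, 242 and 223 CPM in STF6, against 8.16, 12.4 and 7.03 CPM in T4A, 26.8-fold higher (4.74 ± 0.19, adjusted p = 6.18e-08). STF6 was obtained by its effect on this regulon, so a rise of these genes is what the strain was chosen for and is no independent support.

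Of 10 other measured genes listed with phosphate 7 rose and 1 fell, with a median log2 fold of 0.61. The list was made with earlier results of these data known, and ecl3 was counted in it. The gene ecl3 (SPBC8E4.12c), named for its effect on chronological lifespan, had 91.5, 83 and 78.8 CPM in STF6, against 1.36, 3.10 and 1.95 CPM in T4A (5.33 ± 0.22, adjusted p = 7.53e-08). In RefSeq's annotation ecl3, pho84 and pho1 stand next to each other, with no other protein-coding gene between them. SPBPB2B2.06c, which encodes a predicted extracellular 5'-nucleotidase, had 244, 183 and 207 CPM in STF6, against 2.67, 8.03 and 2.08 CPM in T4A (5.69 ± 0.36, adjusted p = 3.46e-06). Its T4A level was highest in replicate 2, and all T4A libraries stayed far below those of STF6. A further predicted phosphate importer gene, SPBC1683.01, had 261, 250.1 and 249 CPM in STF6, against 50.4, 84.3 and 47.9 CPM in T4A (4.18-fold higher, adjusted p = 4.47e-05).

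Storage and recycling genes moved less. Of the vacuolar transporter chaperone, the complex that makes polyphosphate, vtc4 had 298, 270.0 and 252 CPM in STF6, against 169, 169 and 153 CPM in T4A (0.74 ± 0.10) and vtc2 had 348, 317 and 307 CPM in STF6, against 203, 219.6 and 198 CPM in T4A (0.65 ± 0.09). The vacuolar alkaline phosphatase gene pho8 rose by 0.58 ± 0.10, and for each of these 3 genes every STF6 library exceeded every T4A library. For gde1, which encodes a glycerophosphodiester phosphodiesterase, the rise was small (0.45 ± 0.14, adjusted p = 0.0314), and it was lost when any library other than T4A replicate 2 was left out. The transcription factor gene pho7, whose product activates the PHO genes, fell, with 116, 112 and 113 CPM in STF6, against 155, 213 and 159 CPM in T4A (−0.63 ± 0.12, adjusted p = 0.00376). Values for csk1 and for pho4, a thiamine-repressible acid phosphatase gene outside the regulon, were −0.17 ± 0.15 and −0.04 ± 0.11, and neither passed. Without T4A replicate 2, 7 of the 10 rose and 2 fell.

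**Figure D2:**
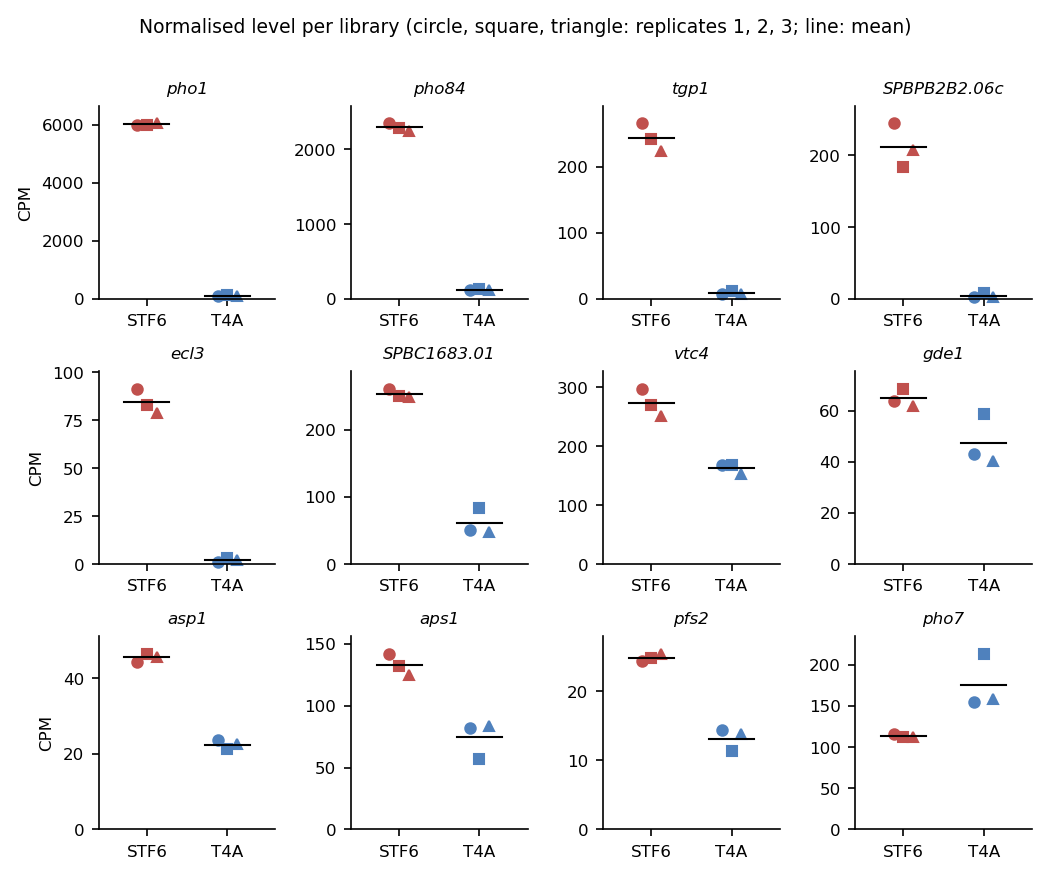
Levels in CPM (y axis, from 0) of 12 genes in each library, with STF6 in red and T4A in blue, circles, squares and triangles for replicates 1, 2 and 3, and a line at the mean. T4A replicate 2 stands above the other T4A libraries for pho1, pho84, tgp1, SPBPB2B2.06c, ecl3, SPBC1683.01, gde1 and pho7, and below them for asp1 and aps1.

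Of 6 genes for enzymes of inositol pyrophosphates and of the steps that lead to them 4 rose and 1 fell. Inositol pyrophosphates are signalling molecules made from inositol hexakisphosphate. The gene asp1, whose product both makes and removes inositol 1-pyrophosphates, had 44.4, 46.4 and 45.6 CPM in STF6, against 23.7, 21.2 and 22.5 CPM in T4A (1.02 ± 0.11, adjusted p = 0.000133). The hydrolase gene aps1 had 142, 132 and 125 CPM in STF6, against 82, 56.9 and 83.9 CPM in T4A (0.84 ± 0.14, adjusted p = 0.00153). Both groups were clearly separate for asp1, and for aps1 T4A replicate 2 was the lowest library. The kinase gene kcs1 rose by 0.39 ± 0.09 and the phospholipase C gene plc1 by 0.58 ± 0.14, whereas the kinase gene ipk1 fell (−0.49 ± 0.13), and arg82 did not pass (0.12 ± 0.16). The numbers that rose were 2, 3, 3, 4, 4 and 4 with STF6 replicates 1, 2 and 3 and T4A replicates 1, 2 and 3 left out in turn, and ipk1 did not pass without any one STF6 library. The call of kcs1 was lost without STF6 replicate 1 or 2, and that of plc1 without STF6 replicate 1 or 3.

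Factors that cut, polyadenylate and terminate RNA polymerase II transcripts rose in 9 of 21 cases and fell in 1. The cleavage factor gene msi2 had 99.7, 94 and 93 CPM in STF6, against 50.2, 58 and 49.8 CPM in T4A (0.86 ± 0.10, adjusted p = 0.00014). Genes of the cleavage and polyadenylation factor were cft2 (32.1, 33 and 35.4 CPM in STF6, against 17.2, 14.7 and 19 CPM in T4A; 0.98 ± 0.14), pfs2 (0.92 ± 0.14) and swd22 (0.58 ± 0.09). The termination factor gene rhn1 had 23, 26.3 and 27.2 CPM in STF6, against 15.2, 11.9 and 16.2 CPM in T4A (0.82 ± 0.16, adjusted p = 0.00341). The phosphatase gene dis2 fell (log2 fold −0.45 ± 0.12), a call that was lost without any one STF6 library. The number that rose was 5, 6, 6, 8, 11 and 9 with STF6 replicates 1, 2 and 3 and T4A replicates 1, 2 and 3 left out in turn, and 6 with library size alone as the scaling.

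Among genes of the polymerase itself and its kinases few moved. Of 10 genes of CTD kinases and phosphatases, mcs6 fell, with 99.9, 111 and 102 CPM in STF6, against 186, 237 and 173 CPM in T4A (−0.93 ± 0.12, adjusted p = 0.000349). Its product is the kinase of TFIIH that acts on the CTD at initiation. The gene lsg1, for a subunit of the Lsk1 kinase, rose by 0.59 ± 0.17, and that call was lost when T4A replicate 1 or any one STF6 library was left out. Genes of the other kinases and of the phosphatase Fcp1 did not pass, among them cdk9 (0.03 ± 0.14), lsk1 (−0.12 ± 0.12) and fcp1 (0.22 ± 0.17). Without T4A replicate 2, 1 of the 10 rose and 2 fell. Of 12 polymerase II subunit genes 2 rose by small amounts, rpb2 (0.28 ± 0.10) and rpb11 (0.26 ± 0.08), with 0, 0, 0, 0, 2 and 1 higher with STF6 replicates 1, 2 and 3 and T4A replicates 1, 2 and 3 left out in turn and none under median-ratio scaling or in DESeq2.

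Of 4 genes listed with the Paf1 complex, an elongation complex that travels with the polymerase, 2 rose. The list was not drawn up to hold every gene of the complex. The gene tpr1 had 80.2, 80.8 and 81.5 CPM in STF6, against 33.5, 24.2 and 33.7 CPM in T4A (1.41 ± 0.13, adjusted p = 4.84e-05). The gene leo1 had 56, 58.4 and 62.6 CPM in STF6, against 28.4, 22.5 and 29.9 CPM in T4A (1.13 ± 0.13, adjusted p = 0.000163). In both, every STF6 library was above every T4A library. The other listed genes, paf1 (0.22 ± 0.09) and prf1 (−0.08 ± 0.10), did not pass, and paf1 did so without T4A replicate 2, giving 3 of 4.

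Splicing genes leaned upward, with 20 of 100 higher and 1 lower, against 14.8% and 14.4% of all genes, and a median of 0.22. The U1 protein gene usp108 (110.0, 99.3 and 104 CPM in STF6, against 72.6, 73.2 and 71.3 CPM in T4A; 0.53 ± 0.08), the helicase gene prp43 (0.52 ± 0.10) and the U2 protein genes sap10 (0.66 ± 0.14) and sap145 (0.63 ± 0.14) rose. SPAC1705.02, which encodes a SERF family protein, fell (log2 fold −0.80 ± 0.11). The count depended on single libraries, with 7, 9, 6, 12, 33 and 35 higher with STF6 replicates 1, 2 and 3 and T4A replicates 1, 2 and 3 left out in turn and 3 lower without T4A replicate 2, and was 8 with library size alone. Of 17 genes of nuclear RNA elimination, the exosome pathway that removes meiotic messages, 4 rose, led by red1 (0.64 ± 0.16), pir2 (0.47 ± 0.14) and rrp6 (0.52 ± 0.17). With the same libraries left out the number was 1, 1, 0, 2, 9 and 5, 2 fell without T4A replicate 2, and with library size alone none passed. The calls of red1, pir2 and rrp6 were each lost without STF6 replicate 3 and without at least one other library.

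Genes for iron uptake fell, 6 of 9 measured, with a median of −1.74, and none rose (0 at an unadjusted p under 0.05 and 0 in DESeq2). Their summed level was 258 to 285 CPM in STF6 and 480 to 779 CPM in T4A, highest in T4A replicate 2. The largest decrease of any protein-coding gene named here was in str1, which encodes an importer of siderophore-bound iron and had 11.6, 11 and 10.7 CPM in STF6, against 124, 199 and 108 CPM in T4A (−3.68 ± 0.21, adjusted p = 1.76e-06). The ferric reductase gene frp1 had 6.11, 5.24 and 5.39 CPM in STF6, against 19.9, 34.9 and 21 CPM in T4A (−2.17 ± 0.23). The genes fio1, for an oxidase, and fip1, for a permease, whose products form one importer and which are neighbours in RefSeq's annotation, had log2 folds of −2.06 ± 0.22 and −1.74 ± 0.21. A second reductase gene, frp2, fell (log2 fold −1.30 ± 0.28), as did str3 (−2.29 ± 0.44) at under 2 CPM in every library. The siderophore genes sib1 (0.02 ± 0.09) and sib2 (−0.41 ± 0.16) and the importer gene str2 (−0.30 ± 0.14) did not pass. With T4A replicate 2 left out, 6 of 9 fell, and 8 fell without T4A replicate 3.

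Iron regulators and stores moved both ways. The vacuolar iron importer gene pcl1 had 269, 269 and 281 CPM in STF6, against 192, 189.9 and 198 CPM in T4A (0.50 ± 0.08, adjusted p = 0.00188). The repressor gene php4, active when iron is scarce, had 48.6, 47.2 and 43.4 CPM in STF6, against 66, 71.2 and 63.8 CPM in T4A (−0.53 ± 0.10), and isu1, for the scaffold of iron-sulphur clusters, fell (log2 fold −0.64 ± 0.13). The gene of the iron sensor Fep1, which represses uptake genes, did not pass (−0.07 ± 0.11). In total 1 of 10 rose and 2 fell, and 3 rose and 3 fell without T4A replicate 2. Among 11 copper and zinc genes the zinc transporter gene zhf1 (431, 422 and 438 CPM in STF6, against 642, 781 and 593 CPM in T4A; −0.64 ± 0.12) and the metallothionein gene zym1 (−0.63 ± 0.15) fell with 2 others, and 1 rose. The number that fell was 2, 1, 2, 3, 4 and 5 and that rose 0, 0, 0, 0, 3 and 0 with STF6 replicates 1, 2 and 3 and T4A replicates 1, 2 and 3 left out in turn, with zym1 lost without STF6 replicate 2.

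Heat shock protein genes fell in 9 of 13 cases and rose in 1, with a median of −0.83. Their summed level was 18545 to 19839 CPM in STF6 and 23274 to 37562 CPM in T4A. The small heat shock protein gene hsp16 had 343, 297 and 346 CPM in STF6, against 1205, 1070.3 and 1151 CPM in T4A (−1.80 ± 0.11, adjusted p = 3.46e-06). The Hsp70 gene ssa1 had 125, 113 and 127 CPM in STF6, against 653, 897 and 524 CPM in T4A (−2.50 ± 0.18, adjusted p = 8.06e-06), a value that is uncertain because reads can be shared with its near-identical copy ssa2. The disaggregase gene hsp104 had 105, 98.7 and 91.2 CPM in STF6, against 289, 300.5 and 244 CPM in T4A (−1.50 ± 0.11, adjusted p = 8.06e-06). None of these 3 overlapped between the groups, and T4A replicate 2 was highest for ssa1 and hsp104 but lowest for hsp16. The Hsp90 gene hsp90 (log2 fold −1.17 ± 0.20), the mitochondrial hsp78 (−0.88 ± 0.10) and hsp9 (−0.71 ± 0.13) fell. With T4A replicate 2 left out, 9 of 13 fell and 2 rose. None rose without STF6 replicate 1, and 3 rose with library size alone.

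Of 16 genes for partners of Hsp70 and Hsp90 8 fell and 1 rose. The nucleotide exchange factor gene fes1 had 131, 131 and 142 CPM in STF6, against 299, 272 and 285 CPM in T4A (−1.08 ± 0.09, adjusted p = 2.66e-05), and aha1, for an activator of Hsp90, had 349, 377 and 364 CPM in STF6, against 654, 849.6 and 584 CPM in T4A (−0.94 ± 0.14). The DnaJ-family genes psi1 (−1.06 ± 0.17), mas5 (−0.83 ± 0.15) and mdj1 (−0.74 ± 0.13) and the Hsp110 gene pss1 (−0.73 ± 0.16) also fell. The mitochondrial mge1 rose by 0.32 ± 0.11, a call lost without any one STF6 library. Leaving out T4A replicate 2 gave the same counts, 8 lower and 1 higher. For the chaperones that fold nascent actin and tubulin, edgeR's quasi-likelihood test and DESeq2 called none of the 8 chaperonin genes of TRiC, with log2 folds of 0.08 to 0.30 and 1 at an unadjusted p under 0.05, and none of the 7 prefoldin genes, with log2 folds of 0.02 to 0.22 and 0 at that p. Without T4A replicate 2, 3 chaperonin genes rose, and 2 did with library size alone.

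Protein turnover genes were called in both directions, set against 14.8% of all genes higher and 14.4% lower. Of 45 proteasome genes 7 fell and 2 rose, among them the cofactor gene txc1 (73.7, 84.7 and 80.1 CPM in STF6, against 151, 186 and 133 CPM in T4A; −0.98 ± 0.12), the lid gene rpn11 (−0.52 ± 0.11) and, higher, the ATPase gene rpt6 (0.51 ± 0.12). Ubiquitin ligases and conjugating enzymes fell in 18 of 86 cases and rose in 4, led by rkr1, for a ligase that acts on stalled ribosomes (143, 135 and 143 CPM in STF6, against 204, 292 and 222 CPM in T4A; −0.77 ± 0.13), hul5 (−0.75 ± 0.12), san1, for a nuclear quality-control ligase (−0.66 ± 0.13) and npl4 (−0.59 ± 0.10). Autophagy and vacuolar protease genes fell in 7 of 23 cases and rose in 2, with the carboxypeptidase gene cpy1 at −0.66 ± 0.17 and the protease genes psp3 and isp6 at −0.60 ± 0.14 and −0.62 ± 0.16. All 3 counts moved with STF6 replicates 1, 2 and 3 and T4A replicates 1, 2 and 3 left out in turn. The numbers that fell were 3, 2, 3, 4, 12 and 10 for the proteasome, 6, 7, 5, 15, 26 and 25 for ubiquitin enzymes and 1, 1, 1, 6, 9 and 8 for autophagy, and those that rose were 1, 1, 1, 1, 5 and 3 for the proteasome, 1, 1, 2, 2, 11 and 8 for ubiquitin enzymes and 0, 0, 0, 1, 4 and 3 for autophagy. The calls of cpy1 and isp6 were lost without any one STF6 library, that of psp3 without STF6 replicate 1 or 3, and that of rpn11 without STF6 replicate 2.

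Peroxide defence genes under the transcription factor Pap1 fell in 10 of 21 cases and rose in 1. Their summed level was 11973 to 12421 CPM in STF6 and 14100 to 21987 CPM in T4A. The sulfiredoxin gene srx1, for the enzyme that repairs peroxiredoxin, had 9.49, 9.01 and 8.25 CPM in STF6, against 45.4, 61.9 and 37.1 CPM in T4A (−2.43 ± 0.19, adjusted p = 1.87e-05). The glutathione transferase gene gst2 had 462, 475 and 449 CPM in STF6, against 1245, 1889 and 1136 CPM in T4A (−1.62 ± 0.18), and the membrane transporter gene caf5 had 86, 90.2 and 85.9 CPM in STF6, against 274, 539 and 187 CPM in T4A (−1.93 ± 0.30). For all 3 the STF6 libraries were nearly equal, while T4A replicate 2 stood well above the other T4A libraries. Exporter genes bfr1 (−0.80 ± 0.16) and pmd1 (−0.71 ± 0.14) fell as well. The mitochondrial superoxide dismutase gene sod2 went the other way, with 441, 384 and 422 CPM in STF6, against 284, 280.0 and 251 CPM in T4A (0.61 ± 0.10). With T4A replicate 2 left out, 11 fell and 2 rose.

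The core environmental stress response, a set of genes induced by many stresses through the kinase Sty1, fell in 11 of 26 cases and rose in 2. It shares hsp16, hsp9, srx1 and zym1 with the lists above. Trehalose genes fell in 2 of 4 cases, tps1, for the synthase of this protective sugar (419, 451 and 445 CPM in STF6, against 869.6, 1142 and 707 CPM in T4A; −1.05 ± 0.16), and the trehalase gene ntp1 (−0.80 ± 0.14), while tpp1 and tps2 did not pass (−0.33 ± 0.12 and −0.16 ± 0.09). The lifespan gene ecl1, related to ecl3, fell where ecl3 rose, with 13.3, 13.6 and 13.7 CPM in STF6, against 25.8, 44 and 25 CPM in T4A (−1.22 ± 0.21, adjusted p = 0.00205). The ferritin-related gene rds1 rose, with 136, 126 and 124 CPM in STF6, against 48.8, 36.3 and 28.5 CPM in T4A (1.76 ± 0.16, adjusted p = 4.74e-05). Neither gene overlapped between the groups. The number that fell was 10, 10, 10, 11, 13 and 17 and that rose 1, 2, 2, 2, 4 and 2 with STF6 replicates 1, 2 and 3 and T4A replicates 1, 2 and 3 left out in turn. Of 18 measured genes for aldo/keto reductases and dehydrogenases of unknown role 4 fell and 1 rose, against 14.4% and 14.8% of all genes. Their summed level was higher in STF6, at 10119 to 10764 CPM, against 6131 to 8749 CPM in T4A. Genes for short chain dehydrogenases of unknown role, osr1 and SPCC663.08c, fell, with log2 folds of −1.91 ± 0.17 and −1.61 ± 0.18.

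**Figure D3:**
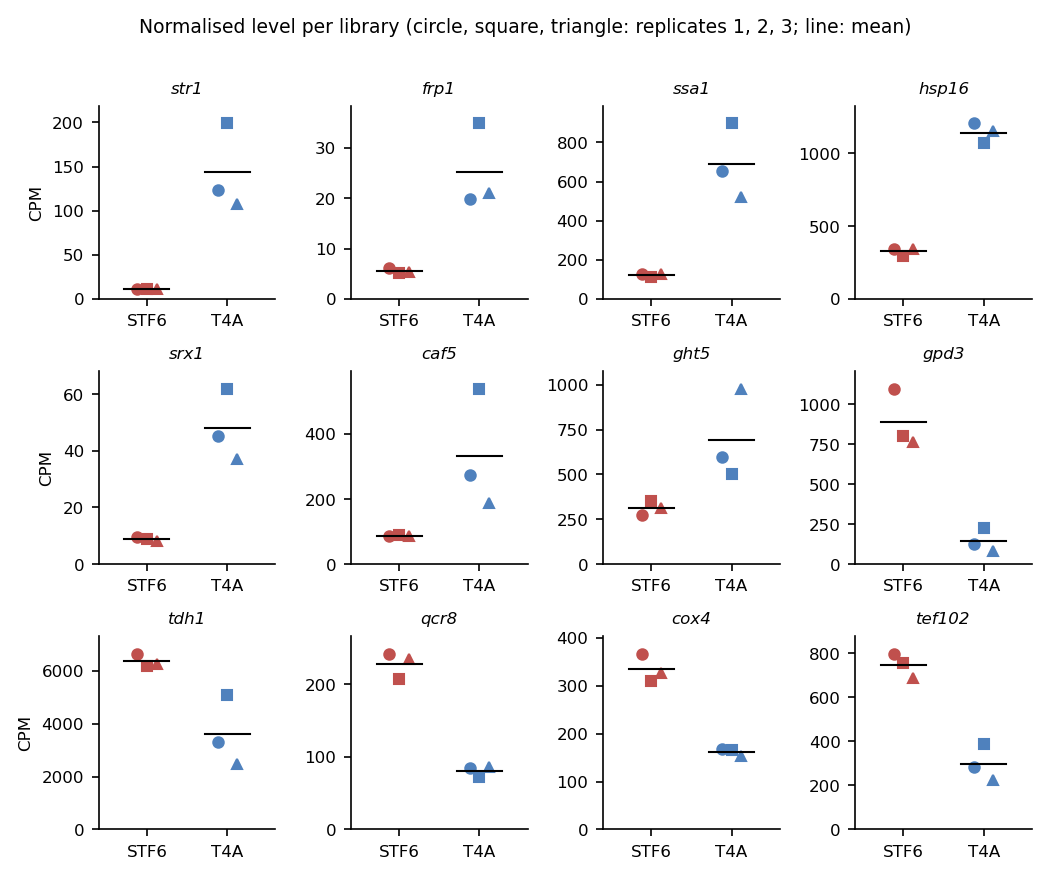
Levels in CPM (y axis, from 0) of 12 genes for iron, stress, carbon, respiration and translation in each library, with STF6 in red and T4A in blue, circles, squares and triangles for replicates 1, 2 and 3, and a line at the mean. STF6 libraries lie below all T4A libraries for the first 7 genes and above them for gpd3, tdh1, qcr8, cox4 and tef102. T4A replicate 2 is the highest T4A library for str1, frp1, ssa1, srx1, caf5, gpd3, tdh1 and tef102, and T4A replicate 3 for ght5.

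Genes that carry hexoses into the cell fell in 3 of 6 cases and rose in 1. The high-affinity transporter gene ght5 had 274, 353 and 313 CPM in STF6, against 595, 501 and 979 CPM in T4A (−1.14 ± 0.21, adjusted p = 0.00322), with T4A replicate 3 the highest library. The genes ght1 (1.43, 2.34 and 1.55 CPM in STF6, against 6.90, 6.08 and 6.20 CPM in T4A; −1.83 ± 0.22) and ght3, a gluconate importer gene (−1.36 ± 0.27), fell too, at low levels. The gene ght2 rose, with 210.2, 203 and 206 CPM in STF6, against 145, 156 and 142 CPM in T4A (0.48 ± 0.08, adjusted p = 0.00232), and its groups did not overlap. Values for ght4 (−0.40 ± 0.15) and ght8 (−0.01 ± 0.11) did not pass. Leaving out T4A replicate 2 gave 4 lower and 1 higher.

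In glycolysis 3 of 13 genes rose and none fell (0 at an unadjusted p under 0.05 and 0 in DESeq2). The glyceraldehyde 3-phosphate dehydrogenase gene gpd3 had 1097, 799 and 761 CPM in STF6, against 126, 229 and 82.1 CPM in T4A (2.60 ± 0.31, adjusted p = 0.000216), and its relative tdh1 had 6637, 6165 and 6247 CPM in STF6, against 3299.9, 5063 and 2462 CPM in T4A (0.82 ± 0.23, adjusted p = 0.0222). The enolase gene eno101 had 5794, 5516 and 4550.2 CPM in STF6, against 2475, 3700.4 and 1697 CPM in T4A (1.01 ± 0.24, adjusted p = 0.0114). Copies of these enzymes are alike in sequence, so reads may be shared between them. In all 3 genes T4A replicate 2 was the highest and replicate 3 the lowest T4A library. The number that rose was 1, 2, 2, 1, 7 and 3 with STF6 replicates 1, 2 and 3 and T4A replicates 1, 2 and 3 left out in turn, gpd3 in each case, and 2 fell without T4A replicate 3. The call of tdh1 was lost without T4A replicate 1 or any one STF6 library, and that of eno101 without STF6 replicate 1 or T4A replicate 1. With library size alone 5 rose.

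Further down the pathway the pyruvate decarboxylase gene pdc101 (4607, 4609 and 4016 CPM in STF6, against 2668, 3297 and 1983 CPM in T4A; 0.74 ± 0.18) and the alcohol dehydrogenase gene adh1 (9381, 9458 and 8810.4 CPM in STF6, against 5741, 6892 and 4452 CPM in T4A; 0.69 ± 0.18) rose. Of 11 genes of pyruvate use and ethanol formation 3 rose and 1 fell, the decarboxylase gene pdc202 (−0.55 ± 0.15). The calls of pdc101, adh1 and pdc202 were each lost in at least 3 of the 6 fits that left out one library, with 0, 0, 1, 0, 4 and 2 higher and 0, 1, 0, 0, 1 and 4 lower with STF6 replicates 1, 2 and 3 and T4A replicates 1, 2 and 3 left out in turn. Genes for other sugars, which glucose normally shuts off, fell in 5 of 15 cases with none higher (2 at an unadjusted p under 0.05 and 1 in DESeq2), among them gal10 (2.55, 1.73 and 2.48 CPM in STF6, against 7, 5.22 and 7.32 CPM in T4A; −1.54 ± 0.22), the maltase gene agl1 (12.3, 12.5 and 10.9 CPM in STF6, against 23.9, 30.7 and 20.9 CPM in T4A; −1.08 ± 0.17) and the activator gene rst2 (−0.48 ± 0.09). The invertase gene inv1 (−0.79 ± 0.24) and the sucrose importer gene sut1 (−0.47 ± 0.16) were lost without T4A replicate 1 or any one STF6 library, leaving 3, and without T4A replicate 2 there were 4 higher and 6 lower, and without T4A replicate 3 1 higher and 6 lower. With library size alone 1 rose and 3 fell.

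Malate and citrate cycle genes rose in 4 of 13 cases and fell in 1. The malic enzyme gene mae2 had 2652, 2587 and 2367 CPM in STF6, against 1035, 1296 and 865 CPM in T4A (1.25 ± 0.16, adjusted p = 0.000284), and the fumarase gene fum1 had 367, 336 and 333 CPM in STF6, against 218, 273 and 201 CPM in T4A (0.58 ± 0.12). The 2-oxoglutarate dehydrogenase gene kgd1 fell (log2 fold −0.55 ± 0.15). The number that rose was 2, 2, 3, 2, 7 and 3 with STF6 replicates 1, 2 and 3 and T4A replicates 1, 2 and 3 left out in turn, kgd1 did not pass without any one STF6 library, and 2 fell without T4A replicate 3. The first enzyme of the pentose phosphate pathway, encoded by zwf1, fell (487, 506 and 465 CPM in STF6, against 733, 942 and 635 CPM in T4A; −0.66 ± 0.14), and the other 3 measured genes of that pathway did not pass, though 2 rose without T4A replicate 2.

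Nuclear genes for respiration rose in large numbers. Of 13 genes of complex III and cytochrome c, which pass electrons to the last complex, 12 rose and none fell, with a median of 0.92. The subunit gene qcr8 had 242, 208 and 235 CPM in STF6, against 84.7, 72.3 and 86.2 CPM in T4A (1.50 ± 0.10, adjusted p = 7.33e-06). The cytochrome c1 gene cyt1 had 708, 579 and 603 CPM in STF6, against 252, 243 and 242 CPM in T4A (1.36 ± 0.11, adjusted p = 1.96e-05). The genes qcr6 (1.29 ± 0.12), qcr7 (1.16 ± 0.11) and rip1, for the iron-sulphur subunit (1.04 ± 0.10), followed. The summed level of the 13 was 3685 to 4239 CPM in STF6 and 1937 to 2001 CPM in T4A, so the T4A libraries, T4A replicate 2 included, lay close together here. Each fit that left out one library gave 12 higher, or 13 without T4A replicate 2.

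Of 20 genes of complex IV, cytochrome c oxidase, and its assembly 10 rose and none fell, with a median of 0.50. The gene cox4 had 367, 310.1 and 326 CPM in STF6, against 169, 166 and 153 CPM in T4A (1.04 ± 0.10, adjusted p = 5.57e-05), and cox12 had 167, 157 and 156 CPM in STF6, against 81.8, 66.9 and 82.6 CPM in T4A (1.05 ± 0.10). The genes cox9 (0.98 ± 0.10), coa2 (0.90 ± 0.10), cox5 (0.75 ± 0.10) and cox6 (0.72 ± 0.09) rose by similar amounts. Of 19 ATP synthase genes 15 rose and none fell, with a median of 0.71. The gene inh1, for an inhibitor of the enzyme, had 166, 133 and 139.6 CPM in STF6, against 73.8, 57.9 and 70.2 CPM in T4A (1.12 ± 0.12, adjusted p = 0.00011), and the subunit genes atp18 (0.92 ± 0.10), atp5 (0.83 ± 0.10), atp3 (0.82 ± 0.10) and atp20 (0.81 ± 0.09) rose as well. In fits without one library 9 to 11 and 14 to 15 of these genes rose, 11 and 15 without T4A replicate 2. In these 3 lists 0, 0 and 0 genes were lower at an unadjusted p under 0.05, and DESeq2 gave 0 lower.

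Other mitochondrial functions moved less. Of 74 genes of mitochondrial ribosomal proteins 13 rose, near the 14.8% of all genes, and 4 fell, with rml2 (0.71 ± 0.11) and mrpl31 (0.74 ± 0.12) higher and mrp17 (−0.76 ± 0.13) and mrpl12 (103, 105 and 112 CPM in STF6, against 154, 157 and 160.4 CPM in T4A; −0.56 ± 0.08) lower. The number that rose was 3, 5, 7, 5, 16 and 15 with STF6 replicates 1, 2 and 3 and T4A replicates 1, 2 and 3 left out in turn, and 7 with library size alone. Of 29 import genes 3 rose, led by tim50 (109, 102 and 99 CPM in STF6, against 65.8, 53.5 and 66.4 CPM in T4A; 0.74 ± 0.10), and 3 fell, led by tim9 (−0.53 ± 0.09), with 1, 1, 1, 3, 5 and 4 higher and 1, 1, 1, 2, 4 and 4 lower for the same libraries left out. None of the 36 genes of the mitochondrial genome in the authors' table had any count in the 6 libraries, so their levels were not measured here.

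Cytosolic ribosomal protein genes had slightly lower values, with a median of −0.22 over 130 genes, of which 5 rose and 13 fell. Both numbers are below the shares of all genes tested. Their summed level was 191933 to 204698 CPM in STF6 and 193331 to 260628 CPM in T4A, so that T4A replicate 3 lay within the STF6 range and T4A replicate 2 far above it. The calls followed single libraries, with 0, 0, 1, 3, 23 and 75 lower and 1, 2, 2, 2, 16 and 5 higher with STF6 replicates 1, 2 and 3 and T4A replicates 1, 2 and 3 left out in turn. DESeq2 gave 40 lower, and library size alone 48 lower and 12 higher. The gene rps2202 rose (543, 513 and 503 CPM in STF6, against 377, 361 and 378 CPM in T4A; 0.48 ± 0.09) while rps2201, which encodes the same ribosomal protein and may share reads with it, fell (−0.49 ± 0.13), the second call being lost without T4A replicate 1 or any one STF6 library.

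Ribosome biogenesis genes rose in 21 of 100 cases and fell in 6, against 14.8% and 14.4% of all genes. Their median was 0.24, though with library size alone the split turned to 7 higher and 9 lower. The rRNA methyltransferase gene fib1 had 682, 589 and 586 CPM in STF6, against 321, 319.7 and 275 CPM in T4A (1.02 ± 0.11, adjusted p = 0.000124). The genes bmt5 (0.77 ± 0.17) and pxr1 (0.67 ± 0.15) rose, and rli1, for a ribosome-recycling ATPase (547, 574 and 532 CPM in STF6, against 782, 956 and 753 CPM in T4A; −0.59 ± 0.12), and tif6 (−0.51 ± 0.11) fell. The numbers were 5, 5, 6, 14, 34 and 42 higher and 2, 2, 2, 5, 9 and 10 lower with STF6 replicates 1, 2 and 3 and T4A replicates 1, 2 and 3 left out in turn. Among 22 genes of RNA polymerase I and its initiation factors 2 rose and 4 fell, with the initiation factor gene rrn3 at 114, 109.7 and 106 CPM in STF6, against 191, 214 and 187 CPM in T4A (−0.84 ± 0.09, adjusted p = 0.000118) and rpa12 at a log2 fold of −0.45 ± 0.09. For these genes the same fits gave 0, 1, 0, 1, 4 and 3 higher and 2, 3, 2, 4, 4 and 4 lower.

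Of 44 translation factor genes 6 rose and 8 fell, against 14.8% and 14.4% of all genes. Among them elongation factor 1 alpha, which brings aminoacyl-tRNA to the ribosome, stood out. Its gene tef102 had 797, 755 and 688 CPM in STF6, against 285, 386 and 223 CPM in T4A (1.33 ± 0.17, adjusted p = 0.00037). The copy tef101 had 1721, 1627 and 1420.5 CPM in STF6, against 584, 863 and 427 CPM in T4A (1.35 ± 0.21). The copy tef103 had 1974, 1778 and 1593 CPM in STF6, against 877, 1282 and 661 CPM in T4A (0.92 ± 0.21). The copies are nearly identical and may share reads, so the values of single copies are uncertain. For each of them T4A replicate 2 was the highest T4A library and still below all STF6 libraries. Of the 44, 4, 3, 3, 4, 13 and 6 rose and 1, 1, 1, 3, 10 and 10 fell with STF6 replicates 1, 2 and 3 and T4A replicates 1, 2 and 3 left out in turn, and 12 rose and 8 fell with library size alone. Of 37 tRNA ligase genes 5 rose and 4 fell, below those shares of all genes, with qrs1 for glutamine (106, 104 and 99.5 CPM in STF6, against 66.7, 66.3 and 67.3 CPM in T4A; 0.63 ± 0.08) and the mitochondrial vrs2 (0.74 ± 0.14) higher and frs1 for phenylalanine (−0.62 ± 0.11) lower. The same fits gave 2, 3, 3, 5, 10 and 8 higher and 1, 1, 1, 3, 6 and 9 lower, and library size alone 4 and 7.

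Sulphur metabolism held one of the largest increases beside a set of decreases. SPCC11E10.01, which encodes a predicted cystathionine beta-lyase, had 217, 223 and 213 CPM in STF6, against 33.6, 37.4 and 29.2 CPM in T4A (2.71 ± 0.11, adjusted p = 6.18e-08). The gene sam1, for the enzyme that makes S-adenosylmethionine, had 909, 1004 and 941 CPM in STF6, against 1706, 2614 and 1856 CPM in T4A (−1.11 ± 0.16, adjusted p = 0.000761). The groups did not overlap in either gene, in opposite directions. In the pathway that builds homocysteine, met17 (94.7, 118 and 101 CPM in STF6, against 178, 171 and 131 CPM in T4A; −0.61 ± 0.13) and cys2 (−0.61 ± 0.11) fell, as did met1 (−0.71 ± 0.13), and met11, for methylenetetrahydrofolate reductase, rose (0.75 ± 0.11). In total 2 of 17 rose and 7 fell. The number that fell was 4, 4, 4, 4, 8 and 9 and that rose 2, 2, 2, 2, 3 and 2 with STF6 replicates 1, 2 and 3 and T4A replicates 1, 2 and 3 left out in turn.

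Other amino acid genes showed no common direction, set against 14.8% of all genes higher and 14.4% lower. Of 21 genes for histidine, glutamate, serine, threonine and proline 5 rose and 2 fell, with his4 (247, 244 and 207 CPM in STF6, against 137, 115 and 124 CPM in T4A; 0.89 ± 0.11) and ser2 (0.56 ± 0.09) higher and ser3 (−0.73 ± 0.13), for the first step to serine, lower. The numbers were 2, 2, 3, 4, 6 and 5 higher and 1, 1, 1, 1, 4 and 8 lower with STF6 replicates 1, 2 and 3 and T4A replicates 1, 2 and 3 left out in turn. Among 17 genes for arginine and lysine 2 rose, led by lys7 (0.67 ± 0.13), and 1 fell, and among 14 for branched-chain and aromatic amino acids 1 rose and 2 fell. The same fits gave 1, 1, 1, 1, 4 and 1 higher and 0, 0, 0, 0, 2 and 4 lower for the first of these lists and 0, 0, 1, 1, 6 and 1 higher and 0, 0, 0, 1, 2 and 3 lower for the second. The oligopeptide importer gene isp4 had 89, 105 and 104 CPM in STF6, against 20.3, 24 and 19.6 CPM in T4A (2.22 ± 0.12, adjusted p = 1.04e-06), and the amino acid permease gene SPAC1039.01 had 136, 139 and 129 CPM in STF6, against 43.3, 48.2 and 53.8 CPM in T4A (1.48 ± 0.10, adjusted p = 6.76e-06). Both were separate between the groups. Permease genes isp5 (−0.92 ± 0.22) and agp3 (−0.60 ± 0.14) fell, and agp3 was lost without STF6 replicate 1.

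In nucleotide metabolism 4 of 6 uracil-regulated genes rose and none fell (0 at an unadjusted p under 0.05 and 0 in DESeq2). The uracil phosphoribosyltransferase gene urg2 had 369, 430.0 and 400.2 CPM in STF6, against 121, 244 and 180.3 CPM in T4A (1.14 ± 0.20, adjusted p = 0.00234), and urg1, for a GTP cyclohydrolase of the same group, had 228, 276 and 243 CPM in STF6, against 69.5, 178 and 95.2 CPM in T4A (1.13 ± 0.26). T4A replicate 2 was the highest T4A library for both and lay closest to STF6. The genes uck2 (0.58 ± 0.13) and SPAC1399.02, for a predicted transporter (0.75 ± 0.11), rose, and urg3 did not pass (−0.02 ± 0.15). The remaining gene had the lowest log2 fold of the list, −0.37, and did not pass either. Without T4A replicate 2, 5 of 6 rose, urg3 among them (log2 fold 0.20), and 1 fell without T4A replicate 3. Of 19 genes of purine and pyrimidine synthesis 2 rose and 5 fell. Purine genes ade7 (305, 306 and 267 CPM in STF6, against 169, 151 and 154 CPM in T4A; 0.89 ± 0.10) and ade9 (0.71 ± 0.12) were higher, while cdc22, for the large subunit of ribonucleotide reductase, fell (680.3, 701 and 645 CPM in STF6, against 1037, 1602 and 935 CPM in T4A; −0.82 ± 0.18). The number that fell was 1, 1, 1, 1, 8 and 13 with STF6 replicates 1, 2 and 3 and T4A replicates 1, 2 and 3 left out in turn.

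Lipid and cell wall genes fell more often than they rose, set against 14.4% of all genes lower and 14.8% higher. Of 28 genes of sterol synthesis and the hypoxic response 8 fell and 1 rose, among them the lanosterol demethylase gene erg11 (689, 703 and 706 CPM in STF6, against 1149.7, 1591 and 1055 CPM in T4A; −0.86 ± 0.15), the haem synthesis gene hem13 (−0.87 ± 0.18) and the transcription factor gene sre2 (−0.50 ± 0.11), with the desaturase gene erg32 higher (0.51 ± 0.10). Of 16 genes of fatty acids and phospholipids 5 fell and none rose (1 at an unadjusted p under 0.05 and 1 in DESeq2), with the methyltransferase gene cho2 (374, 394 and 381 CPM in STF6, against 514, 778 and 584 CPM in T4A; −0.71 ± 0.14) and the phospholipase gene plb1 (1694, 1851 and 1779.8 CPM in STF6, against 2741, 2490.5 and 3269 CPM in T4A; −0.67 ± 0.14) lowest. For cho2, T4A replicate 2 was the highest library, and for plb1 the lowest of T4A. Of 19 cell wall genes 8 fell and 2 rose, with the spore wall gene gas4 (23.6, 23.5 and 23.3 CPM in STF6, against 51.4, 51.5 and 49.4 CPM in T4A; −1.11 ± 0.11), the glucan-modifying gene gas5 (−0.78 ± 0.14) and the glucan synthase gene mok11 (−0.52 ± 0.11) lower and the beta-glucosidase gene psu1 (1328, 1241 and 1342 CPM in STF6, against 842, 796 and 843 CPM in T4A; 0.66 ± 0.11) higher. The numbers that fell with STF6 replicates 1, 2 and 3 and T4A replicates 1, 2 and 3 left out in turn were 3, 3, 4, 6, 9 and 14 for sterols, 3, 3, 4, 5, 5 and 9 for lipids and 4, 4, 4, 8, 8 and 12 for the wall. Those that rose were 1, 1, 1, 1, 3 and 1 for sterols, 0, 0, 0, 0, 4 and 1 for lipids and 1, 1, 1, 2, 2 and 1 for the wall.

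Of 16 mitotic genes, set against 14.8% of all genes higher and 14.4% lower, 5 rose and 1 fell, the gene of the phosphatase Cdc25 that starts mitosis (93.9, 102 and 104 CPM in STF6, against 143, 174 and 132 CPM in T4A; −0.58 ± 0.11). Of 19 genes induced at the start of S phase 5 rose and 2 fell, with pol1, for DNA polymerase alpha (44.8, 43.9 and 43.5 CPM in STF6, against 26.4, 21.6 and 28.4 CPM in T4A; 0.79 ± 0.13), and the replication licensing gene cdc18 (0.75 ± 0.14) higher and cdc22 lower, as given above. The numbers higher were 2, 3, 3, 4, 6 and 4 for mitosis and 2, 2, 2, 2, 8 and 6 for S phase with STF6 replicates 1, 2 and 3 and T4A replicates 1, 2 and 3 left out in turn, and the numbers lower were 1, 1, 1, 1, 1 and 3 for mitosis and 1, 1, 1, 2, 2 and 4 for S phase. Of 10 core histone genes 3 rose and none fell (0 at an unadjusted p under 0.05), htb1 (1596, 1555 and 1577 CPM in STF6, against 961, 1238 and 936 CPM in T4A; 0.59 ± 0.13), pht1 (0.29 ± 0.09) and hhf2 (0.29 ± 0.10). Histone H3 and H4 copies may share reads. The call of htb1 was lost without STF6 replicate 1 or T4A replicate 1, and those of pht1 and hhf2 without T4A replicate 1 or any one STF6 library, pht1 also without T4A replicate 3. The same fits gave 0, 1, 1, 0, 5 and 2 higher, median-ratio scaling 1 and DESeq2 2, and these gave 0 lower.

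Genes of mating and meiosis, which mark cells that have left vegetative growth, were called in both directions, set against 14.8% of all genes higher and 14.4% lower. Of 25 mating and pheromone genes 6 rose and 3 fell, with a summed level of 1177 to 1247 CPM in STF6 and 1155 to 1418 CPM in T4A. The mating regulator gene ste11 rose by 0.57 ± 0.15, the kinase gene byr1 by 0.55 ± 0.11 and map1 by 1.46 ± 0.24, and the adhesin gene mam3 fell (log2 fold −0.52 ± 0.12). Of 28 genes of meiosis and sporulation 7 rose and 2 fell, with a summed level of 606 to 634 CPM in STF6 and 528 to 579 CPM in T4A. With a minimum of 1 CPM in all 6 libraries 16 of these were tested, of which 1 rose and 2 fell (median −0.29). Their levels were low, as for the septin gene spn5 (3.80, 4.33 and 5.02 CPM in STF6, against 0.729, 0.401 and 1.29 CPM in T4A; 2.37 ± 0.32) and for mei4, for a meiotic transcription factor (3.61, 2.51 and 3.60 CPM in STF6, against 5.83, 5.68 and 5.70 CPM in T4A; −0.83 ± 0.19). Of 18 genes of nitrogen starvation and amino acid permeases 2 rose and 5 fell, isp4 higher and isp5 lower as given above, with a summed level of 1261 to 1306 CPM in STF6 and 1284 to 1600 CPM in T4A. Too few counts to be tested were found for 3 of 28 listed mating genes and 6 of 34 listed meiotic genes. The part of such cells in any result was not tested. In RNA from whole cultures, more cells of a kind and more RNA in each such cell cannot be told apart. For mating genes the numbers were 3, 4, 4, 2, 9 and 6 higher and 1, 1, 0, 3, 4 and 5 lower with STF6 replicates 1, 2 and 3 and T4A replicates 1, 2 and 3 left out in turn, and for meiotic genes 4, 5, 4, 5, 9 and 9 higher and 2, 1, 3, 2, 6 and 3 lower. For nitrogen genes they were 1, 1, 2, 2, 4 and 2 higher and 2, 4, 4, 5, 7 and 7 lower. The calls of ste11 were lost without STF6 replicate 1 or T4A replicate 1, those of mam3 without STF6 replicate 3, and those of mei4 without STF6 replicate 2.

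**Figure D4:**
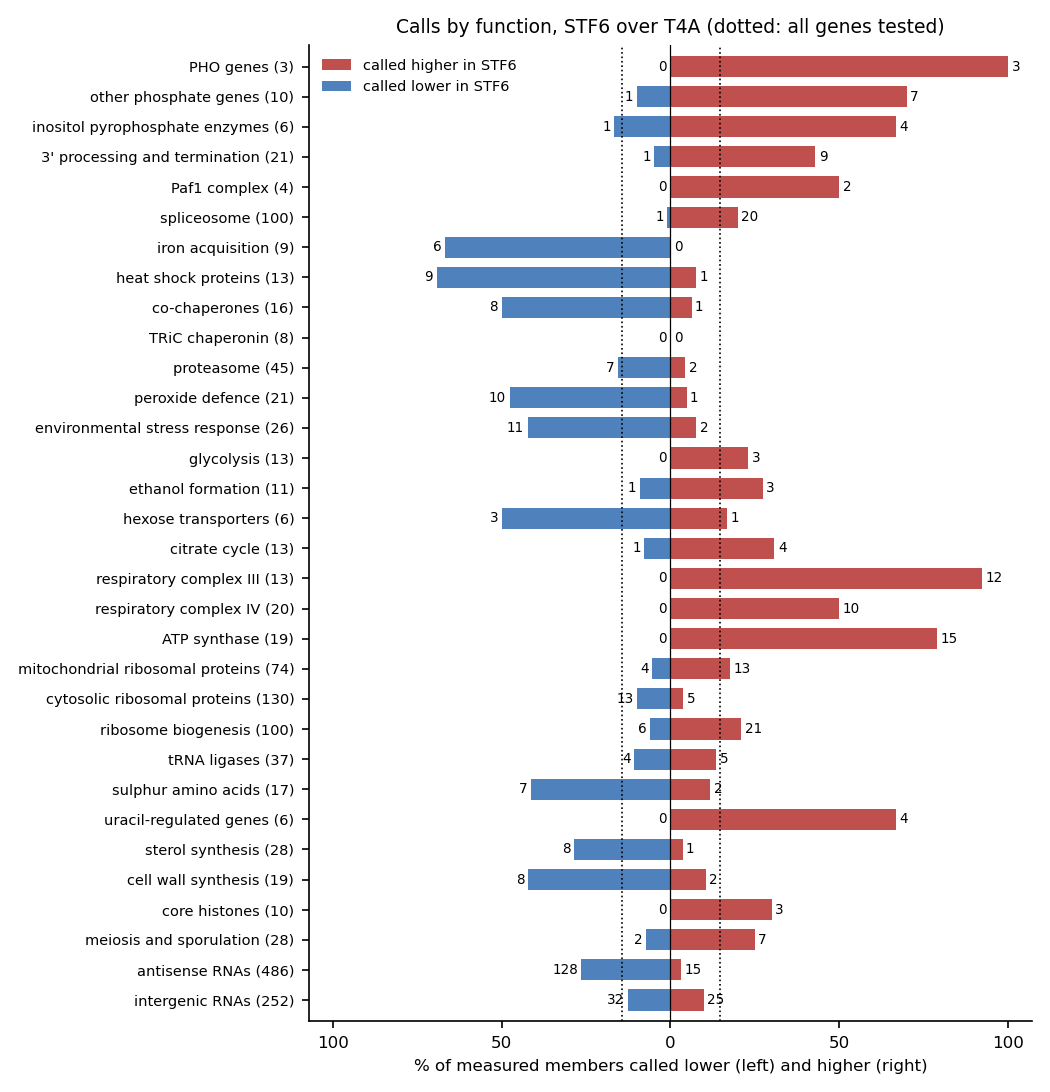
For 32 groups of genes, bars show the percentage of measured members called higher (red, right) and lower (blue, left) in STF6, with the number of members measured after each name and the number called beside each bar. Dotted lines mark the shares of all genes tested, 14.8% higher and 14.4% lower, and the bars of complex III, ATP synthase, iron acquisition, heat shock proteins and the phosphate groups reach well past them.

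Of 486 antisense RNAs 128 fell and 15 rose, with a median of −0.26, against 14.4% and 14.8% of all genes. Those that the authors' table marks as a possible alternative UTR, kept apart here, fell in 41 of 93 cases and rose in 5 (median −0.53). Of 252 intergenic RNAs 25 rose and 32 fell (median −0.03). The antisense RNAs gave 78, 77, 84, 105, 163 and 130 lower and 10, 11, 9, 12, 24 and 25 higher with STF6 replicates 1, 2 and 3 and T4A replicates 1, 2 and 3 left out in turn. The marked ones gave 27, 30, 32, 37, 45 and 45 lower and 2, 3, 2, 2, 8 and 5 higher, and the intergenic ones 18, 19, 21, 22, 46 and 29 lower and 18, 20, 12, 16, 32 and 40 higher. The libraries were made with a stranded kit, but whether the counting used the strand is not given in the sources used here, so reads of an antisense RNA and of its sense gene may be mixed.

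Among antisense RNAs that passed, SPAC1B3.04c-antisense-2, which lies against guf1, had 0.787, 0.650 and 0.682 CPM in STF6, against 4.86, 4.42 and 6.24 CPM in T4A (−2.87 ± 0.24, adjusted p = 3.2e-05). The gene guf1 itself, for a mitochondrial translation GTPase, had 4.86, 3.77 and 5.33 CPM in STF6, against 0.729, 0.344 and 0.499 CPM in T4A (3.11 ± 0.28, adjusted p = 4.61e-05), so the pair moved in opposite directions with no overlap between groups in either. SPCC1919.05-antisense-1 had 16.4, 16.6 and 16.6 CPM in STF6, against 89.7, 118 and 76 CPM in T4A (−2.51 ± 0.16), while its sense gene ski3, for an exosome cofactor, did not pass (0.06 ± 0.13). Upward, lid2-antisense-1 had 24.9, 23.2 and 24.8 CPM in STF6, against 4.23, 6.71 and 4.12 CPM in T4A (2.29 ± 0.20) and pof9-antisense-1 had 46, 45 and 43.3 CPM in STF6, against 10.7, 14.5 and 13 CPM in T4A (1.82 ± 0.14), and their sense genes were at 0.28 ± 0.10 and −0.19 ± 0.17. Among those marked as possible alternative UTRs, swi3-antisense-1 (−2.66 ± 0.27), rct1-antisense-1 (−2.47 ± 0.20), SPAC29A4.06c-antisense-1 (−2.38 ± 0.24) and rex3-antisense-1 (−2.34 ± 0.23) fell, all at low levels.

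An antisense RNA and its sense gene were both tested in 490 pairs. Where the antisense RNA fell (151 pairs), the sense gene rose in 17.2% and fell in 3.31%, and where it was not called (322 pairs) the sense gene rose in 18.0% and fell in 9.94%. Across all 490 pairs the folds of sense and antisense had a Spearman's rho of −0.11, given as a description since pairs share libraries and may share reads.

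**Figure D5:**
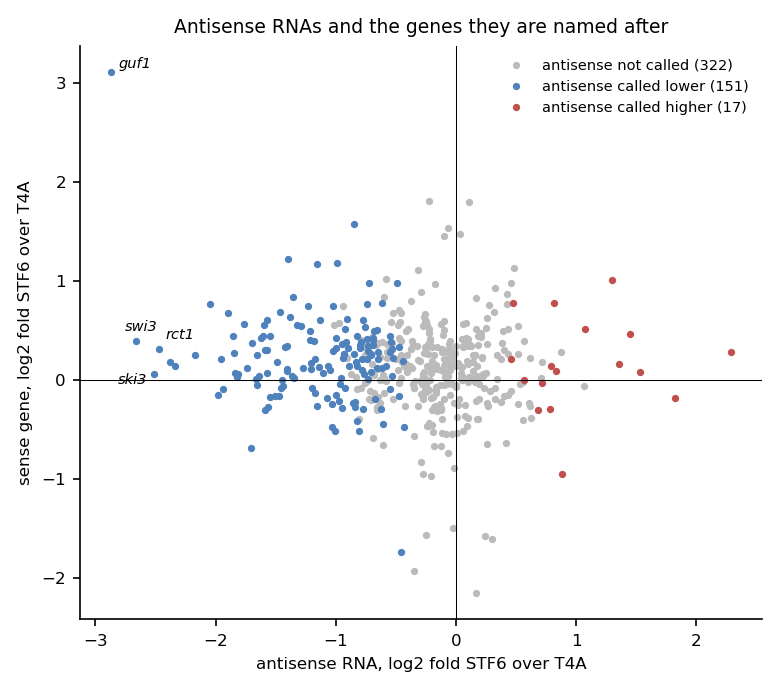
Each of the 490 points is an antisense RNA and the gene it is named after, with the log2 fold in STF6 over T4A of the antisense RNA on the x axis and of the sense gene on the y axis. The 151 antisense RNAs called lower (blue) lie to the left over a range of sense folds around 0, and guf1 stands alone at the upper left.

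Small structured RNAs, which a poly(A)+ library captures poorly, were mostly at low levels. Of 37 measured small nucleolar and spliceosomal RNAs 5 rose and 11 fell, with both U3 copies lower, snu3 at 6.11, 7.19 and 5.15 CPM in STF6, against 21.9, 14.3 and 24 CPM in T4A (−1.70 ± 0.21) and snu32 at a log2 fold of −1.66 ± 0.20, and snoU14 higher, at 77.1, 69.7 and 74.8 CPM in STF6, against 42.4, 51.1 and 36.7 CPM in T4A (0.77 ± 0.12). Of 13 measured 5S rRNA genes, 9 fell and none rose (0 at an unadjusted p under 0.05 and 0 in DESeq2), led by SPRRNA.53 (−2.18 ± 0.36), SPRRNA.33 (−2.14 ± 0.37) and SPRRNA.40 (0.787, 0.520 and 0.868 CPM in STF6, against 3.16, 2.81 and 2.91 CPM in T4A; −2.05 ± 0.25). Repeats of this kind share reads. The small RNAs gave 3, 5, 3, 5, 6 and 7 higher and 9, 8, 9, 10, 15 and 9 lower with STF6 replicates 1, 2 and 3 and T4A replicates 1, 2 and 3 left out in turn. The 5S rRNA genes gave 7, 7, 11, 8, 10 and 10 lower with the same libraries left out.

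Several of the largest folds were in genes outside these groups, most of them at low levels. The plasma membrane proton pump gene pma2 had 4.30, 3.38 and 3.22 CPM in STF6, against 0.243, 0.344 and 0.249 CPM in T4A (3.70 ± 0.29, adjusted p = 1.87e-05). Further genes that rose were ngl1, for a peptide N-glycanase (7.36, 7.62 and 5.95 CPM in STF6, against 1.46, 1.89 and 0.832 CPM in T4A; 2.36 ± 0.26), SPBC1703.08c, for a predicted 5-formyltetrahydrofolate cyclo-ligase (2.34 ± 0.22), and gep4, for a phosphatase of the cardiolipin pathway (1.96 ± 0.18). The gene aes1, for a protein of the PhzF family, had 55.3, 44.8 and 47.4 CPM in STF6, against 13.2, 10.9 and 15.9 CPM in T4A (1.88 ± 0.16), and SPBPB21E7.08, a pseudogene next to it in RefSeq's annotation, had 55.4, 60.1 and 57.5 CPM in STF6, against 13.1, 15.3 and 21.1 CPM in T4A (1.80 ± 0.16). SPBC25B2.08, which encodes a protein found in this species alone per the authors' table, rose by 1.82 ± 0.10, and SPAPB8E5.10, a conserved fungal gene, by 1.72 ± 0.28. Downward, SPBPB21E7.04c, for a catechol O-methyltransferase homologue, had 2.82, 2.34 and 1.86 CPM in STF6, against 9.18, 15.8 and 7.86 CPM in T4A (−2.20 ± 0.28, adjusted p = 0.000331). SPCC18B5.02c, a pseudogene of a cinnamoyl-CoA reductase, had 14.4, 17.3 and 19 CPM in STF6, against 56, 62 and 51 CPM in T4A (−1.74 ± 0.14). Genes at lower levels that fell were SPBC557.05, for an arrestin (−1.98 ± 0.26), SPCC737.04 (−1.95 ± 0.35), SPCC338.18 (−1.77 ± 0.21), mug108 (−1.72 ± 0.22), SPAC23H4.05c (−1.70 ± 0.23) and SPAC11D3.01c (−1.64 ± 0.25), whose products have no role stated in the authors' table.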

How the data were processed

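Poly(A)+ RNA was sequenced from stranded libraries (TruSeq), per the labels' protocols. Reads were processed with HISAT2 2.1.0, SAMtools, HTSeq 0.10.0 and DESeq2 by the authors, per the submitters' processing notes, against build ASM294v2. The authors deposited raw counts per gene for all libraries and a table of their own comparison, with log2 fold changes, p-values and adjusted p-values, which served here for names and products. No source used here gives the strand setting of the counter.

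The count table held 6986 genes after 1 line without a gene name was dropped, and 411 of them had no count in the 6 libraries. Genes were filtered with edgeR 4.0.16 (filterByExpr, defaults), leaving 5917, scaled by TMM and tested with the quasi-likelihood test on group alone (R 4.3.3), with Benjamini-Hochberg adjustment over all genes tested and a threshold of 0.05. The common biological coefficient of variation was 0.121. CPM are computed from deposited counts with TMM-scaled library sizes. The SE was taken as the log2 fold divided by the square root of F. The test was also run on simulated counts with known changes, drawn with the same spread in both groups. That run does not cover the wider spread of the T4A libraries. Alternatives were other scalings, filters on low counts, DESeq2 1.42.0, a fit of all 9 libraries, a block by replicate number, and leaving out each library.

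Named are 6 non-coding RNAs and 20 other genes, protein-coding genes and pseudogenes, with the largest folds in each direction. They were taken among those that passed, had non-overlapping groups and averaged 1 or more in log2 CPM. From each gene list, members with the smallest p, or members of any p where a list is short, are named, without a limit on level or overlap. The gene lists, and the members named, were chosen with earlier results of these data known, and list counts do not serve as independent evidence. RefSeq annotation, of another build than the counts, was used only for which genes are neighbours, so no coordinates or sequences are given.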

Additional observations from a re-analysis of the deposited data

How the results depend on the processing

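The PHO genes and the 6 iron uptake genes that fell kept their direction and their call when any one library was left out. So did the 40 protein-coding genes and pseudogenes with the largest folds. Counts of calls depended more on the libraries. Over the fits that left out one library, the number of genes higher was 405 to 1440 and lower 390 to 1190, those at least 2-fold higher 114 to 171 and lower 168 to 214. With a minimum of 1 CPM in all libraries 82 genes were at least 2-fold higher. Median-ratio scaling gave 799 higher and 889 lower, library size alone 664 and 794, no filter on low counts 891 and 857, DESeq2 859 and 942, and the fit of all 9 libraries 1141 and 1145. None of the scalings moved the median log2 fold of all genes by over 0.1. Without T4A replicate 2 the log2 folds of urg3 and SPBPJ4664.02 turned to 0.20 and 0.21 and passed, against −0.02 and −0.09 with all libraries, where neither passed, and their lowest values with one library left out were −0.15 and −0.25.

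With a replicate block the test gave 992 higher and 910 lower, 141 and 192 of them at least 2-fold. Deviations from the group means of libraries with the same number correlated with r of −0.14, 0.08 and 0.39 for numbers 1, 2 and 3. STF6 replicate 1 correlated best with T4A replicate 2 (r of 0.29). With 3 libraries a group these values cannot decide whether the numbers pair the samples. Counting depth was at least 15374453 per library. Genes at a few CPM rest on few reads, and differences under the spread of the T4A libraries were not detectable with 3 libraries a group.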

Other observations

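Of 72 genes on cosmids near the chromosome ends 17 rose and 15 fell, against 14.8% and 14.4% of all genes. Their median log2 fold was 0.18, and they include SPBPB2B2.06c, already counted among the phosphate genes. SPBPB7E8.01, which encodes a predicted surface protein particular to this genus per the authors' table, had 2251, 2267 and 2223 CPM in STF6, against 763, 1028 and 805 CPM in T4A (1.38 ± 0.14, adjusted p = 7.65e-05 in edgeR's quasi-likelihood test). SPAC977.14c, for an aldo/keto reductase, had 338, 363 and 361 CPM in STF6, against 665, 589.7 and 659 CPM in T4A (−0.85 ± 0.10). Both were separate between the groups. The numbers were 12, 14, 13, 14, 28 and 19 higher and 9, 10, 10, 13, 21 and 19 lower with STF6 replicates 1, 2 and 3 and T4A replicates 1, 2 and 3 left out in turn, and many genes of these regions are repeated, so that reads may be shared.

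RNA polymerase III genes, whose products transcribe tRNA and 5S rRNA, rose in 3 of 10 cases and none fell (0 at an unadjusted p under 0.05 and 0 in DESeq2), led by rpc25 (62.3, 57.3 and 55.9 CPM in STF6, against 36.6, 37.2 and 40.2 CPM in T4A; 0.62 ± 0.10), with 1, 1, 2, 2, 4 and 4 higher with STF6 replicates 1, 2 and 3 and T4A replicates 1, 2 and 3 left out in turn and 1 lower without T4A replicate 2. Among 11 genes of cell surface glycoproteins 1 rose and 3 fell, with SPAPB18E9.04c lowest (39.6, 41.4 and 41.4 CPM in STF6, against 89.3, 103 and 73.2 CPM in T4A; −1.12 ± 0.12), and the same fits gave 0, 1, 0, 1, 5 and 1 higher and 1, 2, 1, 2, 3 and 3 lower, so that more rose than fell without T4A replicate 2. The most highly counted of them, the flocculin gene pfl2, had 2278, 2332 and 2341 CPM in STF6, against 2336, 2689.7 and 1936 CPM in T4A (−0.00 ± 0.14). Of 10 thiamine genes 2 fell, sno1 (−0.42 ± 0.09) and thi2 (−0.45 ± 0.11), and the same fits gave 0, 0, 0, 0, 2 and 0 higher and 1, 1, 2, 2, 2 and 2 lower. The call of thi2 was lost without STF6 replicate 1 or 2, and 1 gene rose with library size alone.

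Genes named for a rise in meiosis were balanced, with 13 higher and 13 lower of 104, near the 14.8% and 14.4% of all genes. Examples are mug115 (34.3, 30.9 and 31.9 CPM in STF6, against 17, 18.3 and 18.3 CPM in T4A; 0.86 ± 0.12) and mug163, for a mitochondrial protein (22.4, 25.8 and 22.2 CPM in STF6, against 38.2, 54.8 and 37.6 CPM in T4A; −0.89 ± 0.16). They gave 6, 8, 7, 8, 23 and 15 higher and 8, 9, 10, 11, 19 and 17 lower with STF6 replicates 1, 2 and 3 and T4A replicates 1, 2 and 3 left out in turn. Of 182 membrane transporter genes, tgp1 and str1 of the lists above among them, 31 rose and 40 fell, against 14.8% and 14.4% of all genes. With library size alone 33 rose and 31 fell. Leaving out one library at a time gave 23, 24, 23, 24, 54 and 27 higher and 20, 23, 24, 33, 48 and 52 lower in the same order, so the side with more calls depends on the scaling and on single libraries. Of 19 wtf elements, a family that includes meiotic drivers, 1 fell, wtf15 (9.30, 8.31 and 10.1 CPM in STF6, against 12.3, 17.5 and 13.6 CPM in T4A; −0.65 ± 0.17), a call lost without STF6 replicate 1 or 2. Without T4A replicate 2, 1 rose and 1 fell, and 2 fell without T4A replicate 3. Only 2 of 13 Tf2 retrotransposon entries had enough counts to be tested, with log2 folds of −0.03 and 0.16.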
